A study of Zea mays with 2 samples.

Results

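Genes of abscisic acid signalling and of the protein phosphatase 2C family were examined in V5-stage leaves, from young vegetative plants, of the maize (Zea mays) cultivar Sugar 75. Members were all genes whose family description in the library tables names protein phosphatase 2C, abscisic acid, an epoxycarotenoid or abscisate, and none of these descriptions named a bZIP factor, which would have removed the gene. PYL7 (GRMZM2G144224) and GRMZM2G443509, which the rule also lists by name, were already among the genes so matched. The rule found 147 of 39634 genes. They comprised 125 phosphatases, 7 receptors, 5 genes described as synthesis enzymes, 7 hydroxylases of breakdown, 2 glucosidases and 1 gene described as abscisic acid-insensitive 5-like. A family description does not show that a phosphatase acts in abscisic acid signalling.

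Each of the 2 groups had 1 library, the control from untreated plants and the other from plants treated with seaweed extract. Each library pools 3 independent samples, per the labels, which also mention 2 technical replicates and a setting of drought. Neither the watering of each pool nor the dose, the species of alga or the time after treatment is given in the sources used here. The treated library carries only the label sample, and its group rests on the series text, which describes 1 control and 1 treated library.

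Abscisic acid is the plant hormone best known for closing stomata and for switching on protective genes when water is short. In Arabidopsis, soluble receptors of the PYR/PYL family bind the hormone and then block clade A protein phosphatases 2C, which otherwise keep SnRK2 kinases inactive. Freed kinases act on transcription factors and on anion channels of guard cells. The hormone is made from carotenoids through cleavage of 9-cis-epoxycarotenoids to xanthoxin, is inactivated mainly by 8'-hydroxylases, and can be stored as a glucose ester from which glucosidases release it.

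Levels are deposited FPKM values, fragment numbers scaled to gene length and library size, and brackets hold the deposited 95% interval. These intervals cover quantification within 1 library, not the spread between plants or pools. A difference is log2((treated + 1)/(control + 1)), and genes that reach 1 FPKM in either library are called measured. With no replicates, no test was possible and every difference is one between 2 libraries. In such bulk leaf RNA, fewer cells of a type and less RNA per cell cannot be told apart. Genes at 1 FPKM or more numbered 14983 in control and 15568 in treated leaves, and the intervals imply a shallower treated library, where a single fragment added 1.23 times the FPKM it added in the control. Over the 16272 measured genes the median log2 ratio was 0.22, so values are also given after the treated library was divided by 1.20, the median ratio of 14279 genes at 1 FPKM or more in both, which is called centring. The leaf markers pep1 (GRMZM2G083841, mesophyll) and me3 (GRMZM2G085019, bundle sheath) were abundant, with 1747 FPKM in control against 1262 in treated leaves for pep1, and 944 against 591 for me3.

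Among the members, 2 receptor genes, 1 hydroxylase gene and both glucosidase genes had much lower levels in the treated library, while 3 phosphatase genes and a short aldehyde oxidase locus had higher ones. The phosphatase family as a whole stayed close to the median gene. Of the 147 members, 86 were measured, of which 10 were at 1 FPKM or more only in the control and 1 only in the treated library. Among all 16272 measured genes, 704 were at 1 FPKM or more only in the control and 1289 only in the treated library. Of the other 61 members, 24 were listed at 0 in both libraries (16.3% of all members, against 29.5% of all genes). Counting log2 ratios of at least 1, 4 measured members were higher, against 3.71% of all measured genes. At log2 ratios of -1 or less, 5 were lower, against 2.52% of all measured genes. The median over measured members was 0.23 (0.030 after centring, when the median of all genes was 0.011, 2 members were higher against 2.04% of all measured genes, and 5 were lower against 3.39%). A gene that is measured only in the library where it is high had to differ, so these counts describe the list and give no support to a direction.

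**Figure D1:**
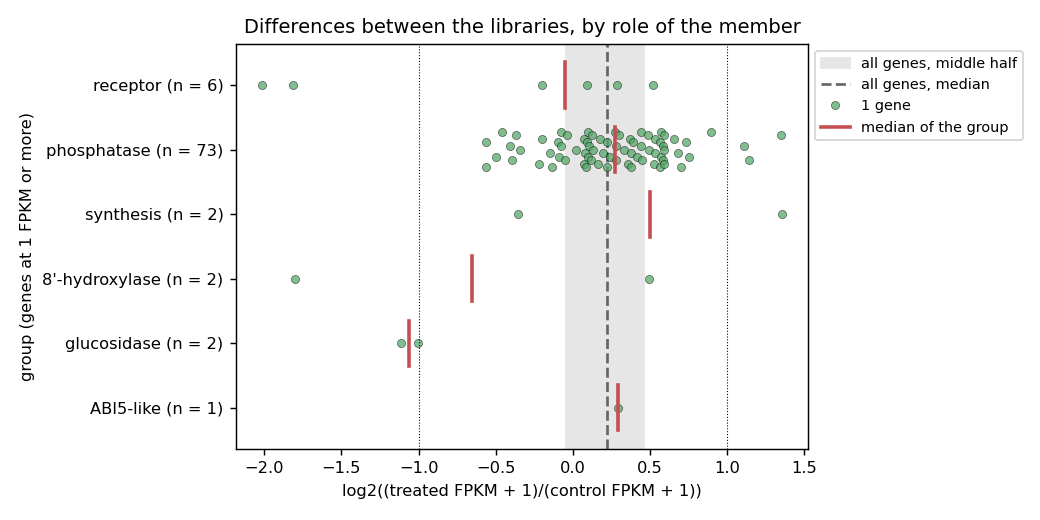
Log2 ratio of treated over control FPKM for every measured member, by role. Each point is 1 gene, red bars are group medians, the dashed line and grey band are the median and interquartile range of all measured genes, and dotted lines mark -1 and 1. The 2 lowest receptors lie near -2, both glucosidases just past -1, and the 73 phosphatases spread around the median of all genes.

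The receptors split into a pair at far lower levels in the treated library and a rest whose intervals overlapped between the libraries. PYL5 (GRMZM2G057959, chromosome 9, 137026057 to 137027406) had 7.06 FPKM (5.95 to 8.17) in control leaves, against 0.996 FPKM (0.53 to 1.47) in treated ones. PYL7 (GRMZM2G144224, chromosome 1, 46232263 to 46233515) had 10.04 FPKM (8.67 to 11.4) in control leaves, against 2.14 FPKM (1.43 to 2.85) in treated ones. Neither pair of intervals came near to overlapping, and the control values were 7.09- and 4.69-fold the treated ones. Log2 ratios were -2.01 for PYL5 and -1.81 for PYL7 (-2.14 and -1.99 after centring). The intervals imply about 162 and 215 fragments in the control and about 18 and 36 in the treated library, so the treated levels rest on few reads. Both genes carry the same family description, that of the receptor PYL4, although the gene names in the tables are PYL5 and PYL7.

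Of the other 5 receptor genes, 4 were measured and none reached a log2 ratio of 1 in either direction. PYL10 (GRMZM2G165567) had 7.80 FPKM (6.72 to 8.88) in control leaves, against 8.38 FPKM (7.11 to 9.65) in treated ones. GRMZM2G133631, described like PYL10 as related to the receptor PYL7, had 8.19 FPKM (7.11 to 9.27) and 10.2 FPKM (8.86 to 11.5). Each gene's intervals overlapped between the libraries, and for PYL10 the log2 ratio turned from 0.091 to -0.14 after centring. The receptors related to PYL1 were scarcer. PYL2 (GRMZM2G134731) had 1.11 FPKM (0.68 to 1.53) in control leaves, against 0.83 FPKM (0.42 to 1.25) in treated ones. AC194914.3_FG002 had 2.01 FPKM (1.13 to 2.89) and 3.31 FPKM (2.04 to 4.59), again with overlapping intervals. This 1.65-fold higher level rests on about 21 and 27 implied fragments, so it is imprecise. PYL3 (GRMZM2G154987) stayed under 1 FPKM, at 0.44 and 0.39 FPKM.

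The order of the receptors differed between the libraries. In the control PYL7 had the highest level, and its interval overlapped those of GRMZM2G133631 and PYL10, whose own intervals overlapped that of PYL5. In the treated library GRMZM2G133631 and PYL10 came first with overlapping intervals, and PYL7 and PYL5 lay well below them. Summed FPKM of the 2 receptors at lower levels came to 17.1 in control and 3.14 in treated leaves. Over the other 4 measured receptors the sums were 19.1 and 22.7 FPKM. Over all 6 measured receptors the sum was 36.2 and 25.9 FPKM, and the median log2 ratio was -0.054 (-0.23 after centring). That median lies between the 2 kinds of receptor and describes neither.

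**Figure D2:**
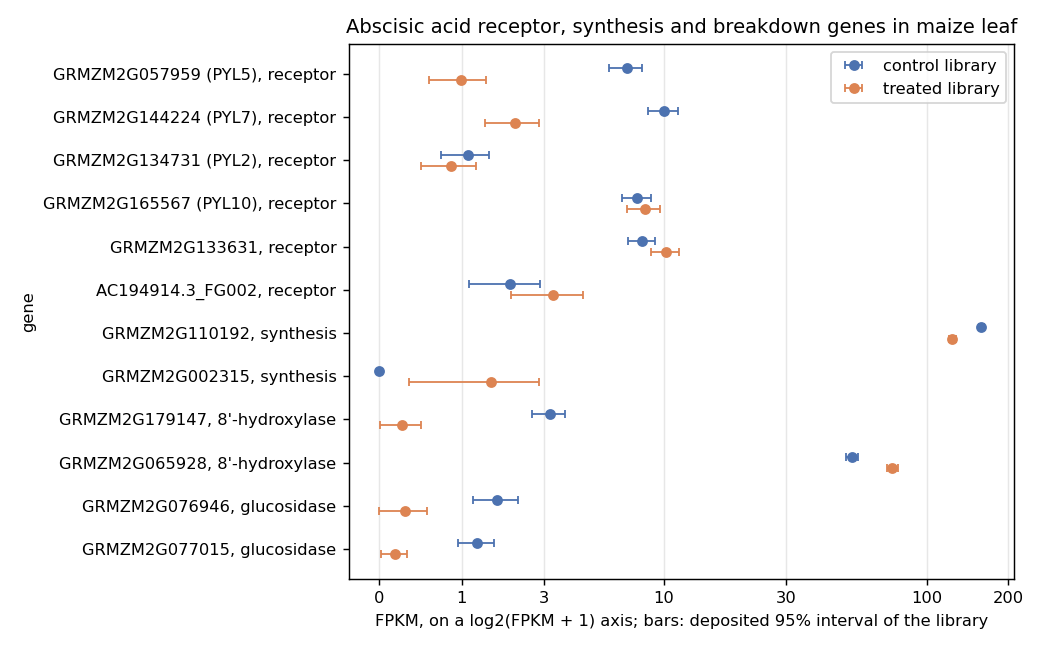
FPKM of the measured receptor, synthesis, hydroxylase and glucosidase genes in the control (blue) and treated (orange) library, on a log2(FPKM + 1) axis with the deposited 95% intervals as bars. PYL5 and PYL7 stand at 7.06 and 10.04 FPKM in control leaves and at 0.996 and 2.14 FPKM in treated ones, while the intervals of the other 4 receptors overlap.

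The most abundant member of all was a dioxygenase gene of the synthesis group. GRMZM2G110192 (chromosome 4, 159724031 to 159726475) had 159 FPKM (156 to 163) in control leaves, against 125 FPKM (121 to 128) in treated ones, a log2 ratio of -0.35 (-0.62 after centring). Its intervals were far apart, as about 7702 and 4862 implied fragments make them narrow. The description names 9-cis-epoxycarotenoid dioxygenase, the enzyme that makes xanthoxin, together with a dioxygenase that cleaves zeaxanthin, so it does not show which of these carotenoids the enzyme cleaves. Both other loci described as 9-cis-epoxycarotenoid dioxygenase were under 1 FPKM. GRMZM5G838285 had 0.30 and 0.51 FPKM with overlapping intervals, and AC201995.4_FG001 was listed at 0 in both libraries. The gene vp14 (GRMZM2G014392), the founding 9-cis-epoxycarotenoid dioxygenase gene of plants, first known from maize seeds, has a description outside the rule and was looked up after the values were seen. It had 1.04 FPKM (0.76 to 1.32) in control leaves, against 0.53 FPKM (0.30 to 0.76) in treated ones, with intervals that just overlapped as deposited and lay apart toward the lower side after centring.

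The remaining synthesis genes that the rule matched had low levels. GRMZM2G002315, described as an abscisic-aldehyde oxidase, the enzyme type of the final step, is a locus of 393 bases on chromosome 8 (159907199 to 159907591). It was listed at 0 in control leaves and at 1.56 FPKM (0.29 to 2.83) in treated ones, a level that about 6 implied fragments support. GRMZM2G121747, described as abscisic acid-deficient 4, a gene of neoxanthin formation in Arabidopsis, had 0.26 and 0.085 FPKM with overlapping intervals. The synthesis group thus had 1 abundant gene at a moderately lower level in the treated library and no other member above 2 FPKM.

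The 2 measured hydroxylase genes differed in opposite directions. GRMZM2G065928 (chromosome 7, 125973528 to 125976469), by far the higher, had 52.9 FPKM (50.1 to 55.6) in control leaves, against 74.7 FPKM (71.1 to 78.4) in treated ones, 1.41-fold higher, with a log2 ratio of 0.49 (0.23 after centring). GRMZM2G179147 (chromosome 5, 200649228 to 200652026) had 3.22 FPKM (2.63 to 3.81) in control leaves, against 0.21 FPKM (0.0017 to 0.42) in treated ones, a log2 ratio of -1.80. Intervals were apart for both genes, also after centring, and about 4 fragments are implied behind the treated value of the second. The other 5 hydroxylase genes were below 0.50 FPKM in control leaves and below 0.22 FPKM in treated ones.

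Both glucosidase genes had lower levels in the treated library. GRMZM2G076946 had 1.70 FPKM (1.19 to 2.21) in control leaves, against 0.25 FPKM (0 to 0.50) in treated ones. GRMZM2G077015 had 1.28 FPKM (0.94 to 1.63) and 0.14 FPKM (0.015 to 0.26). Log2 ratios were -1.12 and -1.003, and about 4 and 5 fragments are implied behind the treated values. The genes are neighbours on chromosome 3 (136563026 to 136566806 and 136578436 to 136582018). Whether their sequences are alike enough for reads to have been shared between them was not tested. Their description as related to abscisate glucosidase does not show that the enzymes act on the glucose ester of the hormone. The single transcription factor gene, GRMZM2G479760, related to the bZIP factor ABI5 by its description, had 2.87 FPKM (2.21 to 3.53) and 3.73 FPKM (2.88 to 4.58) with overlapping intervals.

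Protein phosphatases 2C are metal-dependent enzymes that remove phosphate from serine and threonine, and plants carry them in large families with roles from hormone signalling to chloroplast light harvesting. Of the 125 phosphatase genes, 73 were measured (58.4%, against 41.1% of all genes), 17 of them reaching 10 FPKM in either library. Listed at 0 in both libraries were 23 phosphatase genes (18.4%, against 29.5% of all genes). Log2 ratios reached 1 in 3 of the measured ones and -1 in none, beside 3.71% and 2.52% of all measured genes in these directions. The median log2 ratio of phosphatases was 0.28 (quartiles 0.018 and 0.53) against 0.22 for all measured genes. After centring, the median was 0.083 and 1 gene was higher. Intervals lay apart toward the higher side for 24 phosphatases (32.9%, against 28.6% of all measured genes) and toward the lower side for 4 (5.48%, against 8.76%). With the treated values and intervals centred, 12 lay apart on each side (16.4%, against 13.5% of all measured genes on the higher and 16.2% on the lower side). These shares are near those of all genes.

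The highest phosphatase in both libraries was GRMZM2G372297, whose description names protein phosphatase 2C 57, in Arabidopsis the thylakoid enzyme that dephosphorylates light-harvesting proteins. It had 50.5 FPKM (48.0 to 53.0) in control leaves, against 65.0 FPKM (61.9 to 68.0) in treated ones, and its intervals overlapped after centring. GRMZM2G003096, related to protein phosphatase 2C 26, which in Arabidopsis acts on the photosystem II core, had 29.2 FPKM (26.8 to 31.6) and 31.9 FPKM (28.9 to 34.8). A gene with an added cyclic nucleotide-binding domain, PP2C29 (GRMZM2G053722), had 29.0 FPKM (27.7 to 30.3) and 30.6 FPKM (29.1 to 32.1). The last 2 genes had overlapping intervals on the deposited scale, and their log2 ratios turned from 0.12 and 0.075 to -0.14 and -0.18 after centring, when the intervals of PP2C29 lay apart toward the lower side. The most abundant phosphatases thus include relatives of chloroplast enzymes that are not known as part of abscisic acid signalling.

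GRMZM2G443509 (chromosome 10, 113161530 to 113169068) was the phosphatase with the largest difference. It had 11.8 FPKM (10.6 to 13.1) in control leaves, against 31.7 FPKM (29.2 to 34.2) in treated ones, 2.68-fold higher, with a log2 ratio of 1.35 (1.09 after centring). Its treated level stood beside those of GRMZM2G004377 and PP2C29, while in control leaves its 11.8 FPKM lay below their 21.1 and 29.0 FPKM. PP2C6 (GRMZM2G166297, chromosome 8, 168479977 to 168481963) had 5.55 FPKM (4.69 to 6.40) in control leaves, against 13.5 FPKM (12.0 to 15.0) in treated ones, 2.43-fold higher. GRMZM2G377904 (chromosome 5, 6436445 to 6439210) had 3.29 FPKM (2.69 to 3.90) and 8.25 FPKM (7.15 to 9.34), 2.50-fold higher. The last 2 genes had log2 ratios of 1.14 and 1.11, and 0.90 and 0.87 after centring, when both were below 1 but still had intervals apart.

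Each of these 3 phosphatases shares its subfamily with 1 other gene, and those partners were compared because they may have related sequences. The partner of GRMZM2G443509 is GRMZM2G016749, which had 20.5 FPKM (19.1 to 21.9) in control leaves, against 19.1 FPKM (17.6 to 20.6) in treated ones. Its intervals overlapped as deposited and lay apart toward the lower side after centring, and the order of the pair was turned in the treated library. The partner of PP2C6 is GRMZM2G059453, with 3.44 FPKM (2.78 to 4.10) and 6.23 FPKM (5.23 to 7.23), 1.81-fold higher. The partner of GRMZM2G377904 is GRMZM2G050512, with 1.19 FPKM (0.84 to 1.54) and 2.29 FPKM (1.75 to 2.84), 1.92-fold higher. Both of these partners had intervals apart on the higher side, which after centring held for GRMZM2G059453 and not for GRMZM2G050512. The last 2 partners were named after their values were seen.

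**Figure D3:**
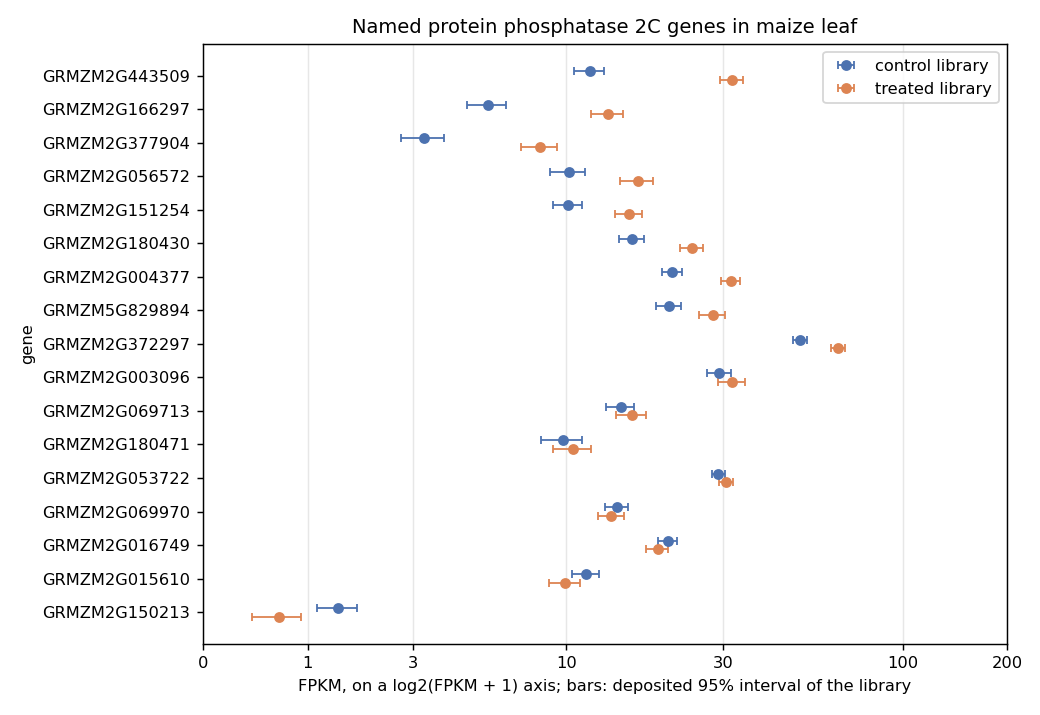
FPKM of the 17 named phosphatase genes in the control (blue) and treated (orange) library, on a log2(FPKM + 1) axis with the deposited 95% intervals as bars, ordered by log2 ratio. GRMZM2G443509 stands at the top with 11.8 and 31.7 FPKM, and the 7 genes from GRMZM2G003096 to GRMZM2G015610 have overlapping intervals.

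Other phosphatases at 10 FPKM or more had smaller differences. GRMZM2G056572, related to protein phosphatase 2C 59, had 10.2 FPKM (8.87 to 11.5) in control leaves, against 16.6 FPKM (14.7 to 18.5) in treated ones. Of the same subfamily, GRMZM5G829894 had 20.7 FPKM (18.8 to 22.5) and 27.8 FPKM (25.4 to 30.3), and GRMZM2G166035, named after its values were seen, 15.5 FPKM (14.1 to 17.0) and 20.6 FPKM (18.8 to 22.5). All 3 had intervals apart toward the higher side as deposited, but after centring this held for GRMZM2G056572 alone. The gene GRMZM2G151254, related to protein phosphatase 2C 46, had 10.1 FPKM (9.06 to 11.2) in control leaves, against 15.7 FPKM (14.2 to 17.1) in treated ones. GRMZM2G180430 had 16.0 FPKM (14.6 to 17.4) and 24.2 FPKM (22.3 to 26.2). GRMZM2G004377 had 21.1 FPKM (19.7 to 22.5) and 31.6 FPKM (29.6 to 33.7). These last 3 genes were about 1.5-fold higher, at 1.55-, 1.52- and 1.498-fold, and their intervals stayed apart after centring.

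At the other end of the abundant phosphatases the 4 genes described next had overlapping intervals on the deposited scale. PP2C18 (GRMZM2G015610) had 11.6 FPKM (10.4 to 12.7) in control leaves, against 9.91 FPKM (8.79 to 11.03) in treated ones, with a log2 ratio of -0.20. GRMZM2G069970, related to protein phosphatase 2C 46 like GRMZM2G151254, had 14.3 FPKM (13.2 to 15.5) and 13.8 FPKM (12.6 to 15.1). After centring, intervals of PP2C18 and GRMZM2G069970 lay apart toward the lower side, with log2 ratios of -0.44 and -0.30, so the 2 genes related to protein phosphatase 2C 46 then stood on opposite sides. PP2C19 (GRMZM2G069713) had 14.8 FPKM (13.3 to 16.2) and 15.9 FPKM (14.3 to 17.6). GRMZM2G180471 had 9.77 FPKM (8.32 to 11.2) and 10.5 FPKM (9.10 to 11.9). The log2 ratios of PP2C19 and GRMZM2G180471 turned from 0.10 and 0.096 to -0.15 and -0.15 after centring. Among scarcer genes, GRMZM2G150213 had 1.44 FPKM (1.12 to 1.76) in control leaves, against 0.65 FPKM (0.39 to 0.91) in treated ones, with a log2 ratio of -0.57. The 56 measured phosphatases outside the naming rule had log2 ratios between -0.56 and 0.89.

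Relatives of a phosphatase with a known part in abscisic acid signalling can be told from the descriptions in 1 subfamily. It is named after Arabidopsis protein phosphatase 2C 16, or HAB1, which the hormone receptors block. Of its 6 genes 3 were measured, with log2 ratios from 0.087 to 0.68 and a median of 0.53 (0.34 after centring). PP2C4 (GRMZM2G177386) had 4.59 FPKM (3.79 to 5.40) in control leaves, against 7.98 FPKM (6.80 to 9.15) in treated ones, with intervals apart also after centring. PP2C10 (GRMZM2G001243) had 1.67 FPKM (1.09 to 2.26) and 2.87 FPKM (1.995 to 3.74), and PP2C5 (GRMZM2G437575) 3.28 FPKM (1.95 to 4.62) and 3.55 FPKM (2.03 to 5.06), both with overlapping intervals. PP2C10 and PP2C5 lie within 50 kb of each other on chromosome 8. These genes were named for their subfamily after their values were seen, and other genes of this clade may carry descriptions without a number.

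Few members lie side by side in the genome. Within 50 kb of another member were 13 genes in 6 groups, and in 3 of these groups every gene was measured. The largest such group holds 3 phosphatases related to protein phosphatase 2C 64 on chromosome 1. AC155624.2_FG006 had 1.13 FPKM (0.81 to 1.45) in control leaves, against 0.55 FPKM (0.30 to 0.79) in treated ones, GRMZM5G833774 had 4.31 FPKM (3.66 to 4.96) and 4.18 FPKM (3.48 to 4.88), and GRMZM5G891266 had 2.22 FPKM (1.75 to 2.70) and 2.90 FPKM (2.31 to 3.49). Intervals were apart for the first alone, and the 3 neighbours had no common direction.

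The authors' deposited table of their own comparison lists 8 members, 6 as lower and 2 as higher, and marks none of them as significant. All genes listed there in each direction were not counted here, so this split has no background beside it and is no result about the members. For PYL7 the authors' deposited table gives a log2 fold change of -2.54 with p = 0.0006 and q = 0.0732, and for PYL5 -3.13 with p = 0.0018 and q = 0.153. The hydroxylase gene GRMZM2G179147 has -4.21 (p = 0.00305, q = 0.216) in the authors' deposited table. The glucosidase genes GRMZM2G076946 and GRMZM2G077015 have -2.98 (q = 0.518) and -3.44 (q = 0.766) in the authors' deposited table, and the phosphatase gene GRMZM2G150213 -1.37 (q = 0.901). On the higher side, the authors' deposited table gives 1.15 for GRMZM2G443509 (p = 0.04375, q = 0.883) and no finite value for GRMZM2G002315 (q = 0.291). These p- and q-values compare 2 libraries and not the conditions. For the 7 members with finite values, the log2 fold change in the authors' deposited table minus that of the library tables without a pseudocount was -0.31 to -0.19, and the log2 of the centring factor is 0.27.

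Other genes of the pathway, found by annotation patterns for steps the rule leaves out, numbered 74, of which 39 were measured. Log2 ratios reached 1 in 2 of these and -1 in 1, beside 3.71% and 2.52% of all measured genes, with a median of 0.31 (0.13 after centring). After centring, log2 ratios reached 1 in 1 of them and -1 in 2, beside 2.04% and 3.39% of all measured genes. The pathway genes named here and in what follows were picked after their values were seen. The gene with the largest difference to the lower side matched the zeaxanthin epoxidase pattern, for an enzyme that supplies the epoxycarotenoid precursors. GRMZM2G127139, a gene with FHA and FAD-binding domains, had 12.2 FPKM in control leaves, against 3.83 FPKM in treated ones, while the other 3 measured genes of that pattern had log2 ratios from 0.16 to 0.60. Of these, GRMZM2G136344 was the most abundant, with 131 and 162 FPKM. Both measured genes described as xanthoxin dehydrogenase, ts2 (GRMZM2G455809), known in maize for its part in tassel sex determination, and sca1 (GRMZM2G332976), had small differences, at 11.7 and 14.8 FPKM and at 14.3 and 18.9 FPKM.

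All 6 measured genes matching the aldehyde oxidase pattern had log2 ratios above the median of all measured genes, with a median of 0.69 (0.47 after centring). GRMZM2G141473 had 17.7 FPKM in control leaves, against 51.2 FPKM in treated ones, 2.89-fold higher, and its description names oxidases of several aldehydes but not that of abscisic aldehyde. The pattern also took in 3 genes of betaine-aldehyde dehydrogenase, which belongs to another pathway. Among 6 measured genes matching the SnRK2 kinase pattern, none passed a log2 ratio of 1 in either direction and the median was 0.18 (0.032 after centring). The most abundant of them in the control was GRMZM2G056732, which has the gene name SnRK2.2 but is described as the kinase SRK2C. It had 8.78 FPKM in control leaves, against 6.44 FPKM in treated ones, and GRMZM2G000278 had 3.26 and 7.19 FPKM. As deposited, intervals were apart toward the higher side for GRMZM2G000278 and GRMZM2G130018 (3.19 and 5.27 FPKM) and toward the lower side for SnRK2.2. After centring this held for GRMZM2G000278 and SnRK2.2 alone. Over all measured genes, intervals as deposited lay apart toward the higher side in 28.6% and toward the lower side in 8.76%. Both measured genes described as related to the kinase SRK2D had overlapping intervals. GRMZM2G081915 had 1.07 FPKM in control and 1.13 FPKM in treated leaves, and GRMZM2G066867 had 1.87 and 1.48 FPKM. The kinase descriptions name different subfamilies and do not show which of these kinases the phosphatases hold inactive. The guard cell anion channel gene SLAC1 (GRMZM2G106921), which opens in response to the hormone in Arabidopsis, had 7.24 FPKM (6.36 to 8.12) and 10.3 FPKM (9.08 to 11.5), intervals that overlapped after centring. Over the 3 measured genes matching the S-type anion channel pattern, SLAC1 included, the median log2 ratio was 0.45 (0.21 after centring). GRMZM2G169951 had a log2 ratio of 0.79 (0.55 after centring), with intervals apart toward the higher side on both scales. GRMZM2G011347 had a log2 ratio of -0.066, with overlapping intervals on both scales.

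Genes from families named for induction by the hormone, and rab17, did not share a direction, and a family description does not show that each gene responds to it. Positive log2 ratios were found in 11620 and negative ones in 4652 of all 16272 measured genes. Of 9 measured HVA22-like genes, named after a gene that the hormone induces in barley, all had positive log2 ratios and 7 lay above the median of all measured genes, with a median of 0.45 (0.24 after centring). GRMZM2G130548 had 6.41 FPKM in control leaves, against 15.3 FPKM in treated ones. Of 6 measured genes with the ABA/WDS domain of hormone- and water deficit-induced proteins, 4 had negative and 2 positive log2 ratios and none lay above the median of all measured genes, with a median of -0.47 (-0.70 after centring). GRMZM2G052100 had 202 FPKM in control leaves, against 106 FPKM in treated ones, and the far more abundant bss1 (GRMZM2G168552) had 1516 and 1646 FPKM, which gave -0.15 in place of 0.12 after centring. The dehydrin gene rab17 (GRMZM2G079440), a classic hormone-responsive gene of maize, had 30.1 FPKM in control leaves, against 25.5 FPKM in treated ones. The patterns for ABCG transporters and for hydroxylases outside the rule matched no gene.

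**Figure D4:**
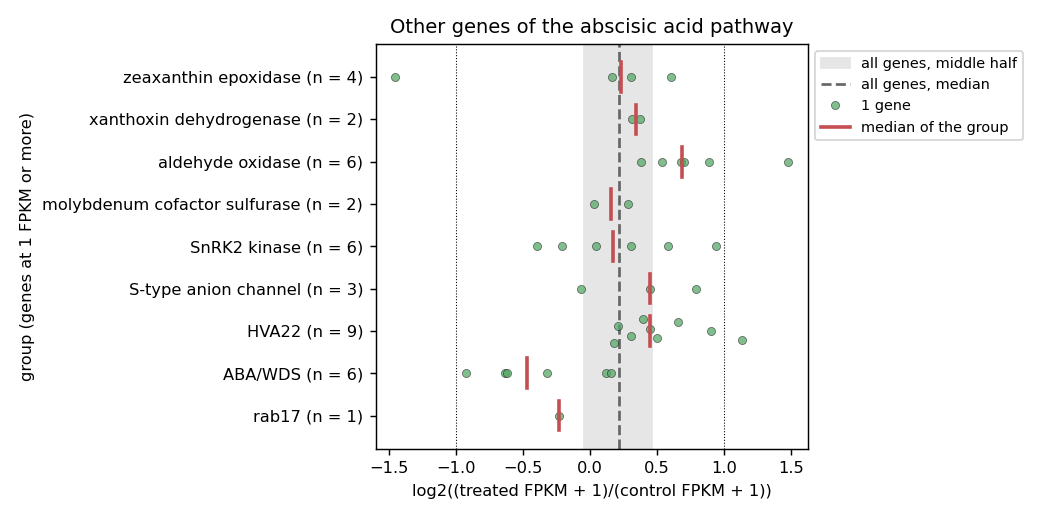
Log2 ratio of treated over control FPKM for the other measured genes of the abscisic acid pathway, by annotation pattern. Each point is 1 gene, red bars are medians, the dashed line and grey band are the median and interquartile range of all measured genes, and dotted lines mark -1 and 1. The 6 aldehyde oxidase pattern genes all lie above the median of all measured genes, and none of the 6 ABA/WDS genes does.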

How the data were processed

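Total leaf RNA was sequenced as 1 pooled library per group, per the labels' protocols. The submitters' processing notes name Cufflinks 2.2.1, Cuffdiff, TopHat2 2.1.0, cutadapt 1.8.1, Picard 1.115 and Bowtie2 2.2.6, without their roles. No source used here names the genome build, and coordinates and gene names are as in the files. The authors deposited FPKM values with interval bounds for 39634 genes per library, per the file headers. Their comparison tables hold a log2 fold change and a p-value and q-value per gene, per the file headers. In them, 8 FPKM columns whose names match no label were not used.

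Differences, counts and medians were computed in Python 3.11.15 with pandas 2.3.3, with a pseudocount of 1 FPKM and a minimum of 1 FPKM in at least 1 library, and checked on simulated data. FPKM keeps no depth. Fragment numbers were read from the upper bound, taken as the value plus 2 times the value over the root of the fragment number. All members had the quantification status OK.

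Named were all measured receptor, synthesis, hydroxylase and glucosidase genes, phosphatases past a log2 ratio of 1, the 8 with the highest mean, the 6 largest and 6 smallest ratios at 10 FPKM or more, and members in the authors' comparison tables. The members and lists were chosen with earlier results of these data known. Alternatives were pseudocounts of 0.1 and 0.5, centring, upper quartile scaling, no minimum and a minimum of 5 FPKM. Sequences were not used here.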

Additional observations from a re-analysis of the deposited data

How the results depend on the processing

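No paired analysis was possible because each group has 1 library. On the centred scale the count of higher members moved from 4 to 2 (also 2 with upper quartile scaling), and the lower ones stayed at 5. A minimum of 5 FPKM left 3 higher and 2 lower, since fewer genes are counted. The pseudocounts of 0.5 and 0.1 gave 4 and 6 higher and 5 and 6 lower. Medians of the log2 ratio under centring and upper quartile scaling were 0.030 and 0.028 for members, 0.083 and 0.081 for phosphatases, -0.23 and -0.23 for receptors, and -0.83 and -0.83 for the synthesis, hydroxylase and glucosidase genes together, whose value as reported on the deposited scale is -0.68. With no minimum, medians were 0.063 for members, 0.079 for phosphatases and -0.15 for the synthesis, hydroxylase and glucosidase genes, because silent genes enter. A minimum of 5 FPKM gave 0.38, 0.41 and 0.070, and -0.86 for receptors. For the same joined group the pseudocounts of 0.1 and 0.5 gave -1.37 and -0.92. Of 29 named members, 24 kept their sign under centring and 27 their side of a log2 ratio of 1. The pseudocount of 0.1 put GRMZM2G150213 at -1.04. The levels under 1 FPKM rest on few fragments, and 1 library per group leaves the spread between pools unknown.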
